A study of Mus musculus with 6 samples.

Results

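The genes described here are Myc and the 3 D-type cyclin genes Ccnd1, Ccnd2 and Ccnd3, measured by every probe set that the array's annotation assigns to exactly 1 of these symbols. That rule took 5 of the 12422 probe sets, 1 each for Myc (104712_at), Ccnd2 (97504_at) and Ccnd3 (160545_at) and 2 for Ccnd1 (94231_at and 94232_at). The cells were mIMCD3, an epithelial line from the inner medullary collecting duct of the mouse, grown with vehicle or with aldosterone for 1 h. Aldosterone is the mineralocorticoid of the adrenal cortex and acts on the collecting duct to retain sodium. The study asked which transcripts respond early to the hormone. The experiment had 3 replications with 1 vehicle and 1 aldosterone array in each, so each treatment has 3 arrays. Neither the hormone's dose nor the culture conditions are given in the labels. The labels do not say whether the replications used separate cultures, so p-values measure only the spread between these samples. The line carries the early region of SV40, whose large T antigen binds the retinoblastoma protein, and all 6 arrays share that background.

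Myc is a transcription factor that pairs with Max to activate genes of growth, ribosome assembly and metabolism, and serum or growth factors raise its short-lived transcript within the hour. D-type cyclins bind the kinases Cdk4 and Cdk6, which phosphorylate the retinoblastoma protein and release E2F factors for entry into S phase. Ccnd1 is the D-type cyclin that mitogens and beta-catenin signalling are best known to raise in epithelia, while Ccnd2 and Ccnd3 are also prominent in blood cells and other tissues.

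On 5 arrays the deposited intensities shared a scale, and the aldosterone array of replication 3 was lower throughout, so every array was scaled to a 2% trimmed mean of 2090 (factors of 0.838 to 0.840 on 5 arrays and 24.2 on that one). Intensities below are scaled and linear, and differences are of log2(intensity + 53.0). Testing was limited to the 7453 probe sets whose mean on that log2 scale reached 8.87. Keratin genes of simple epithelium were bright, with Krt8 at 19391 ± 3832 on the vehicle arrays and 17461 ± 1623 on the aldosterone arrays (SD, n = 3 each), whereas the collecting duct genes Aqp2, Avpr2 and Hsd11b2 were too dim to be tested. Of the markers of other cells on the array, 1 of 6 endothelial, 2 of 6 proximal tubule, 3 of 6 leukocyte and 5 of 8 fibroblast genes were bright enough, among them Eng, Lrp2, Cd14 and Fn1, respectively. The leukocyte gene Ptprc and the endothelial gene Cdh5 were too dim. RNA came from whole cultures, so fewer expressing cells and less RNA per cell cannot be told apart, and the small number of arrays limits the precision.

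After 1 h of aldosterone, none of the 4 tested probe sets of Myc, Ccnd1 and Ccnd3 passed the test, and none went the same way in all 3 replications. Ccnd2 was too dim to be tested. The Myc level instead followed the replication of the experiment, highest in replication 1 and lowest in replication 3 under both treatments. Ccnd3 had the smallest standard error of the 4 tested probe sets, and the probe sets of Ccnd1 differed from each other in how they moved.

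The Myc intensity was 3319, 991 and 581 on the vehicle arrays and 2977, 1257 and 815 on the aldosterone arrays of replications 1, 2 and 3. The arrays of replication 1 were the highest under both treatments, and the treatment groups overlapped over most of their range. The group means were 1630 ± 1477 (vehicle) and 1683 ± 1142 (aldosterone; SD, n = 3 each). Within the replications Myc was lower with aldosterone by a log2 difference of -0.15 in replication 1, and higher by 0.33 in replication 2 and by 0.45 in replication 3. Limma's fit on group alone gave a mean log2 difference of 0.21 (standard error 0.606, adjusted p = 0.9995, 95% interval -1.16 to 1.57). With the replication number as a block, the standard error was 0.187 and the interval -0.21 to 0.63 (limma, adjusted p = 0.998). In the blocked fit the interval left room for a rise of up to 0.63 and did not show that the level was the same. The direction of the mean turned when an array was left out, to -0.29 without the aldosterone array of replication 1 and to -0.31 without the vehicle array of replication 3.

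**Figure D1:**
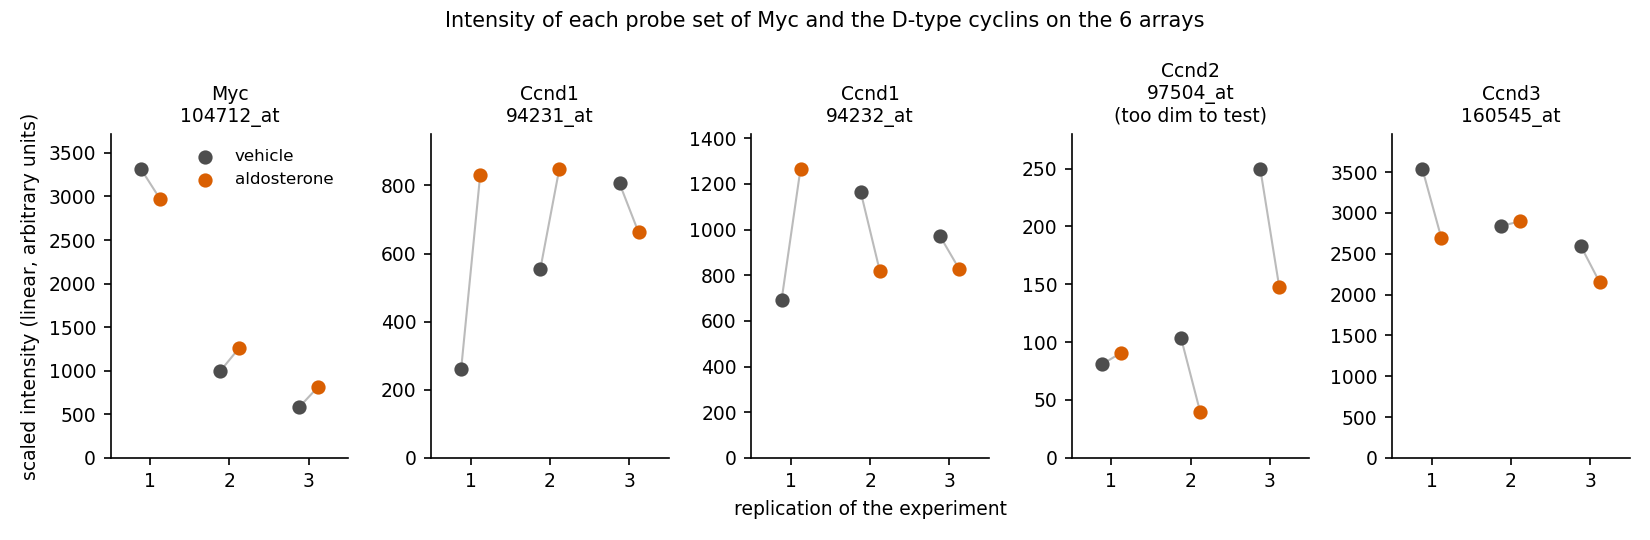
Scaled intensity (vertical axis, linear, a separate scale in each panel starting at 0) of the 5 probe sets on the 6 arrays, by replication (horizontal axis), with vehicle in grey, aldosterone in orange and a line joining the arrays of 1 replication. Myc stepped down from 2977 or more in replication 1 to 815 or less in replication 3 under both treatments, and the vehicle array of replication 1 was the lowest for both probe sets of Ccnd1.

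Ccnd1 encodes cyclin D1. On its probe set 94231_at the intensities were 260, 554 and 806 with vehicle and 830, 849 and 662 with aldosterone in replications 1, 2 and 3. The aldosterone arrays lay close together, the vehicle array of replication 1 was far below the other 5, and the groups overlapped only through the vehicle array of replication 3. Means were 540 ± 273 for vehicle and 780 ± 103 for aldosterone (SD, n = 3 each). The log2 differences were 1.49, 0.57 and -0.26 in replications 1, 2 and 3, with a mean of 0.60, or 1.52-fold (limma, standard error 0.374, adjusted p = 0.9995, 95% interval -0.24 to 1.44). Among the members it had the smallest unadjusted p of the comparison, 0.141 by limma, at rank 357 of 7453 and at rank 691 with the replicate block. That mean rested on replication 1: it was 0.20 without that replication's vehicle array and 0.15 without both of its arrays, and 1.03 without both arrays of replication 3.

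On the other Ccnd1 probe set, 94232_at, the vehicle arrays read 690, 1165 and 972 and the aldosterone arrays 1266, 820 and 829. Its vehicle and aldosterone arrays were interleaved, with the lowest and the highest value both in replication 1. Its log2 differences were 0.83 in replication 1, -0.48 in replication 2 and -0.22 in replication 3, for a mean of 0.04 (limma, standard error 0.273, adjusted p = 0.9995, 95% interval -0.57 to 0.66). The mean turned to -0.15 without the vehicle array of replication 1, to -0.15 without the aldosterone array of that replication and to -0.35 without both. The probe sets thus had the same direction in replications 1 and 3 and opposite directions in replication 2. Their mean log2 differences lay 0.56 apart, with an SD of 0.557 over the 3 replications (p = 0.3 by a two-sided exact permutation test, whose smallest possible p with 3 arrays a group is 0.1).

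Ccnd3 encodes cyclin D3. Its vehicle arrays read 3541, 2842 and 2597 and its aldosterone arrays 2694, 2896 and 2149 in replications 1, 2 and 3. The highest value was a vehicle array and the lowest an aldosterone array, and the groups overlapped between 2597 and 2896. The means were 2993 ± 490 and 2580 ± 386 (SD, n = 3 each). The log2 differences of -0.39, 0.03 and -0.27 averaged -0.21 (limma, standard error 0.185, adjusted p = 0.9995, 95% interval -0.63 to 0.21). With the replicate block the interval was -0.51 to 0.09 (limma, adjusted p = 0.998). This was the narrowest interval among the members in both fits.

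For Ccnd2, the gene of cyclin D2, the vehicle arrays read 80.8, 103 and 250 and the aldosterone arrays 90.6, 39.995 and 147. Its mean log2 value of 7.32 lay at the 18.5th percentile of all probe sets, below the 40th percentile needed for testing. Both arrays of replication 3 were the highest, and the treatment groups overlapped. The log2 differences were 0.10, -0.75 and -0.60 in replications 1, 2 and 3, with a mean of -0.41. When no filter was applied, its standard error was 0.440 and the 95% interval -1.39 to 0.56 (limma, adjusted p = 0.9996). On the aldosterone array of replication 3 the deposited value for Ccnd2 was 6.1, where a step of 0.1 amounts to 2.42 scaled units.

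**Figure D2:**
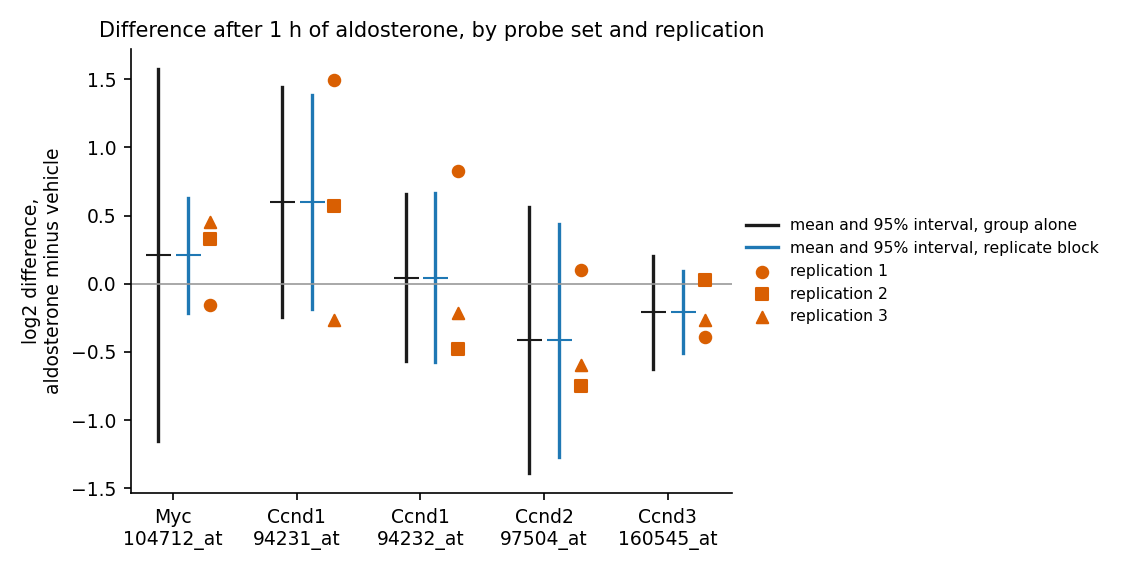
Log2 difference, aldosterone minus vehicle (vertical axis), for each of the 5 probe sets (horizontal axis). Orange symbols are the 3 replications, and bars are the 95% intervals around the mean from limma's fit on group alone (black) and with the replicate block (blue); Ccnd2 is shown from the fit without a filter. All intervals include 0, and for Myc the interval narrowed from -1.16 to 1.57 on group alone to -0.21 to 0.63 with the block.

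By limma, 0 of the 4 tested member probe sets had an adjusted p under 0.05, against 0 of all 7453 (0%), and with the replicate block the count was 0 of 4, again against 0%. At an unadjusted p under 0.05 the members also numbered 0 in both fits, against 72 and 250 probe sets of all tested. None of the 4 was higher in 3 of 3 replications, where 10.5% of tested probe sets were, and none was lower in 3 of 3, where 11.5% were. The exact permutation test over the arrays, two-sided, gave p = 0.8 for Myc, 0.2 and 0.9 for the Ccnd1 probe sets 94231_at and 94232_at, 0.5 for Ccnd2 and 0.5 for Ccnd3, and it cannot go below 0.1.

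The genes that surround Myc and the D-type cyclins in their pathways likewise gave no call for aldosterone. They came from 6 lists with 151 entries in all. The array carried 125 of them, and 112 were tested, each by its brightest probe set. By limma 0 of the 112 passed, also with the replicate block. On group alone 2 had an unadjusted p under 0.05, where 72 of all 7453 tested probe sets did. With the block, limma's unadjusted p was under 0.05 for Dusp1 (4.41e-05), Dusp6 (0.00335), Map2k1 (0.0142), Cdkn2a (0.0191), Shmt1 (0.0216) and Klf6 (0.032). In that fit 250 of all tested probe sets were under 0.05. Of the 112, 15 were higher and 12 were lower in 3 of 3 replications, beside 10.5% and 11.5% of all tested probe sets.

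Among the partners and antagonists of Myc, the sign was positive in 5 of 9 tested genes and negative in 4, and the median log2 difference was 0.002, against -0.0003 over all tested probe sets. Max, the obligate partner of Myc, had intensities of 2057, 2335 and 1998 on the vehicle arrays and 2207, 1799 and 2427 on the aldosterone arrays, and was named after its values were seen. Its levels overlapped between the treatments, and its direction differed between replications. The smallest p-values were those of the antagonist Mxd3 (log2 difference -0.19, standard error 0.223), the ATPase Ruvbl2 (-0.08, 0.157) and the antagonist Mxi1 (0.07, 0.179).

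The list of G1 control, which holds the kinases, inhibitors and targets of the D-type cyclins, split into 10 higher and 9 lower of 19 tested genes, at a median of 0.02. E2f1, a factor that the retinoblastoma protein restrains, was at 1239, 1767 and 1627 on the vehicle arrays and at 1287, 1107 and 948 on the aldosterone arrays (log2 difference -0.45, standard error 0.215). It was lower in replications 2 and 3 and slightly higher in replication 1. Its second probe set gave -0.29 (standard error 0.272). Cdk7, the kinase that activates other cyclin-dependent kinases, had -0.37 (standard error 0.263), lower in 3 of 3 replications. The inhibitor locus Cdkn2a had 0.46 (standard error 0.347), higher in 3 of 3. The adjusted p of each was 0.9995 by limma. Cdk4, the catalytic partner of the D-type cyclins, averaged 24223 ± 2734 in vehicle and 25117 ± 2710 in aldosterone arrays (SD, n = 3 each), and its log2 difference was 0.05, against -0.005 on its second probe set.

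Of genes widely described as activated by Myc, 11 of 26 were higher and 15 lower, at a median of -0.02. Shmt1, a serine hydroxymethyltransferase of folate metabolism, averaged 1370 ± 174 in vehicle and 1928 ± 199 in aldosterone arrays (SD, n = 3 each). Its log2 difference was 0.48 (standard error 0.184). Its groups did not overlap, and the share of all probe sets for which that held was not counted. Its unadjusted p was 0.0272 and its adjusted p 0.9995 by limma. The cap-binding factor Eif4e had -0.58 (standard error 0.342) and the replication licensing gene Mcm4 -0.18 (0.147), both lower in 3 of 3 replications.

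Genes that set the stability of Myc and the D-type cyclin proteins were lower in 10 of 14 cases by sign, at a median of -0.04. The phosphatase subunit Ppp2ca had a log2 difference of -0.24, the scaffold Axin1 -0.22 and the ubiquitin ligase subunit Fbxw7, which marks Myc for degradation, 0.18. Genes acting upstream, among them components of beta-catenin, MAP kinase, STAT and Notch signalling, were higher in 7 and lower in 13 of 20 cases, at a median of -0.06. The kinase Map2k1 had 0.39 (standard error 0.202) and the beta-catenin partner Tcf7l2 0.27 (0.164), both higher in 3 of 3, and the kinase Araf had -0.27 (0.196). Immediate early genes other than Myc, which serum and growth factors induce within minutes, split into 13 higher and 11 lower of 24, at a median of 0.02. The MAP kinase phosphatase Dusp1 had a log2 difference of 0.87 and the other unadjusted p under 0.05 on group alone (limma, 0.0327). Its adjusted p was 0.9995 by limma and 0.0722 with the replicate block. Next by p on group alone in this list were Fosb at 0.28 and Dusp6 at 0.70.

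Myc differed between the repeats of the experiment by more than between the arrays of a repeat. The mean Myc intensity was 3148 in replication 1, 1125 in replication 2 and 698 in replication 3 (2 arrays each). The order was the same with vehicle, where the range was 5.32-fold, and with aldosterone, where it was 3.49-fold. On the log2 scale replication 1 exceeded replication 2 by 1.45 and replication 3 by 2.11, and replication 2 exceeded replication 3 by 0.66, each with a standard error of 0.228. Highest and lowest replication lay 4.31-fold apart, against a median of 1.29-fold over all tested probe sets.

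In limma's F test over the replications 1 of the 4 tested member probe sets was called, that of Myc (adjusted p = 0.00224), against 798 of all 7453 (10.7%). With treatment added to that fit the adjusted p was 0.00284. Myc had the 52nd smallest p of 7453, and 16 of 5640 tested genes, Myc included, had a fold between replications at least as large. No array of Myc in 1 replication overlapped those of another, in the order 1, 2, 3, which held for 2.83% of tested probe sets. That order was the one seen in Myc, and in any order the replications kept apart for 1495 of the 7453. Over 14 alternatives the fold ran from 3.68 to 5.04 and the adjusted p from 4.43e-04 to 0.0362.

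The D-type cyclins did not pass this test. Ccnd3 lay 1.30-fold apart between its highest and lowest replication (adjusted p = 0.288 by limma), with means of 3118, 2869 and 2373 in replications 1, 2 and 3. The Ccnd1 probe sets lay 1.49-fold (94231_at, adjusted p = 0.606) and 1.08-fold apart (94232_at, adjusted p = 0.959). Ccnd2, tested only without a filter, lay 2.04-fold apart with replication 3 highest (limma, adjusted p = 0.356). Whether Myc differed between replications by more than a cyclin gene did was not tested.

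**Figure D3:**
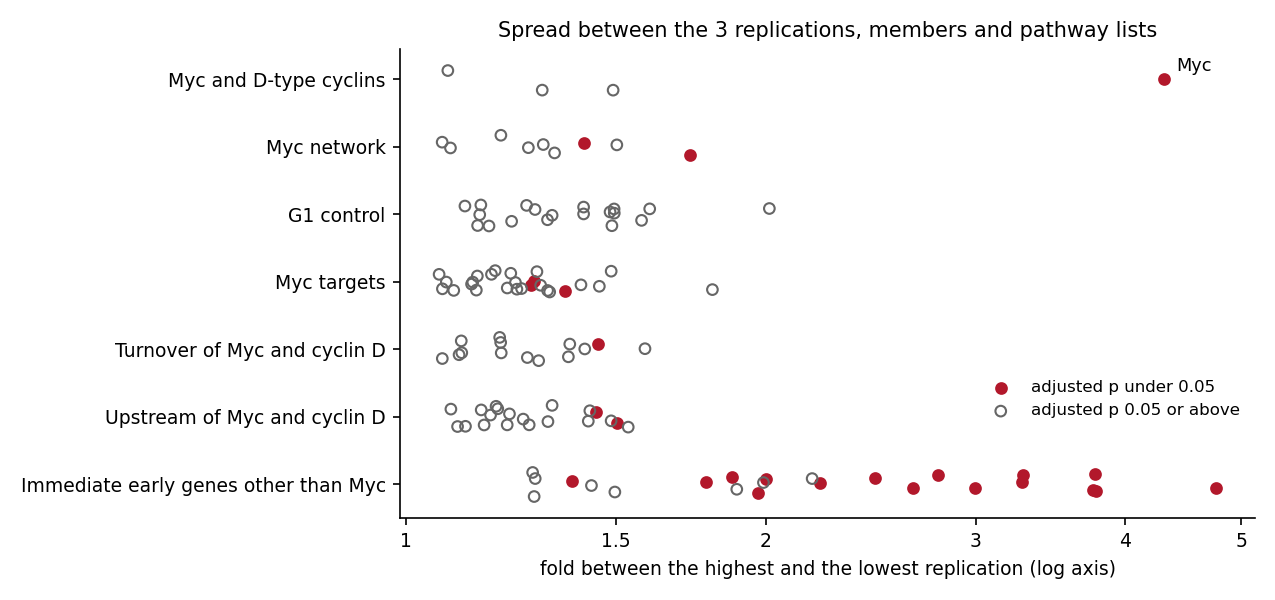
Fold between the highest and the lowest replication (horizontal log axis) for the 4 tested member probe sets and for each tested gene of the 6 pathway lists (rows), filled red where limma's F test gave an adjusted p under 0.05; vertical scatter within a row has no meaning. Myc at 4.31-fold lies far from the 3 cyclin probe sets, at 1.08-fold to 1.49-fold, and within the range of the immediate early genes, 16 of which are filled.

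Many other immediate early genes also differed between the replications. Of 24 tested immediate early genes other than Myc, 16 (66.7%) were called, beside 10.7% of all tested probe sets. The list was chosen with earlier results of these data known, so this share describes these arrays alone. All 16 were highest in replication 1, as were 284 of the 798 probe sets called (3.81% of all tested). Without the intensity trend 7 of the 24 were called, beside 71 of all 7453 probe sets. Fewer of the 24, and fewer of all probe sets, were called when either array of replication 1 was left out. Such a fit has 1 array in that replication. The median fold of the 24 between replications was 2.09, beside 1.29 over all tested probe sets. In the order 1, 2, 3, which is that of Myc, 7 of the 24 kept apart, beside 2.83% of all tested probe sets. Plk2, a kinase of the stress and mitogen response, had the widest fold of the list, at 4.76 (adjusted p = 0.000167 by limma), followed by Dusp6 at 3.78, Ccn1 at 3.77 and Egr1 at 3.76. The AP-1 subunit genes Jun (3.29-fold), Fos (3.28-fold), Junb (3.00-fold), Fosl1 (2.00-fold) and Jund (1.78-fold) were also called. So were the nuclear receptor gene Nr4a1 (2.79-fold), Ier2 (2.66-fold), Klf6 (2.47-fold), Ier3 (2.22-fold), Atf3 (1.97-fold), the RNA-decay factor Zfp36 (1.88-fold) and the antiproliferative gene Btg1 (1.38-fold). These folds are of each gene's brightest probe set. A second probe set of Junb lay 3.96-fold apart. For Klf10 a second probe set was called (1.47-fold, adjusted p = 0.0167 by limma), while its brightest was not. The summed intensity of the 24 genes was 261350 and 259290 in replication 1 (vehicle and aldosterone), 148880 and 170070 in replication 2, and 128590 and 136630 in replication 3. The part that these genes' common state had in the Myc values was not tested.

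Of the 88 tested genes on the other 5 lists, 8 were called between replications, beside 10.7% of all probe sets and 600 of 5640 tested genes. Of the 26 genes described as Myc targets 3 were called, a share near that over all probe sets. These were the nucleolar protein gene Npm1 (1.27-fold, highest in replication 3), the lactate dehydrogenase Ldha (1.28-fold, replication 3) and the licensing gene Mcm7 (1.36-fold, replication 2). In the Myc network the antagonist Mxd4 (1.73-fold, adjusted p = 0.0108 by limma) and the Myc-interacting adaptor Bin1 (1.41-fold, 0.0337) were called, both highest in replication 2. In the list of G1 control 0 of 19 were called by limma and 7 had an unadjusted p under 0.05, beside 29.6% of all tested probe sets. The smallest adjusted p-values were those of the inhibitors Cdkn2a (2.01-fold, 0.0507) and Cdkn2c (1.49-fold, 0.0656) and of Cdk4 (1.23-fold, 0.0685). The last 3 were the ubiquitin ligase subunit Skp1 (1.45-fold, replication 3), the transcription factor Ets2 (1.50-fold, replication 2) and the RNA-binding protein gene Hnrnpk (1.44-fold, replication 1). Next by p in those lists, and not called, were Ddb1 (1.26-fold, adjusted p = 0.0866 by limma), Cryab (1.37-fold, 0.134) and Rela (1.27-fold, 0.0786). Second probe sets of Nras (1.99-fold, 0.00835 by limma) and Hspd1 (3.02-fold, 0.0445) were called, and that of Bin1 was not (0.0639). The epithelial markers also differed between replications: 3 of 8 tested, Krt7, Cldn3 and Cldn4, were called, and the summed intensity of the 8 was 70343 to 73567 in replications 1 and 2 and 47871 to 52602 in replication 3. Its part in the Myc values was not tested.

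The genes whose profiles over the 6 arrays were most like those of the members were taken by Pearson's r of log2 values, 5 for the brightest tested probe set of each gene. The points are 3 pairs of arrays that share a replication, and such high values arise by selection among 7453 probe sets, so the values describe these arrays alone. For Myc the most alike were Uhmk1, a kinase (r = 0.9996, n = 6 arrays), Psmg1, a proteasome assembly chaperone (0.999), Ccdc58 (0.990), Tmsb10, an actin-binding thymosin (0.985), and Lrrc58 (0.984). The Uhmk1 intensity was 6020, 2119 and 1362 on the vehicle arrays and 5350, 2496 and 1787 on the aldosterone arrays, stepping down in the same order as Myc. Lrrc58 kept the order of the replications over a much smaller range, from 7687 to 8820.

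For Ccnd1 (94232_at) the most alike were Siah1b (r = 0.986), Ap1b1 (0.976), Itga7 (0.975), Slpi (0.972) and Rtl6 (0.968), each with the vehicle array of replication 1 as the lowest value. For Ccnd3 they were Hdgfl2 (0.994), Pabpn1 (0.988), Mlst8 (0.983), Spef1 (0.974) and Mrfap1 (0.960), each highest on the vehicle array of replication 1 and lowest on the aldosterone array of replication 3. Among the members themselves r over the 6 arrays was 0.546 between the Ccnd1 probe sets, 0.645 between Myc and Ccnd3, -0.490 and -0.0749 between Myc and the Ccnd1 probe sets 94231_at and 94232_at, and -0.598 between Myc and Ccnd2. Spearman's rho for the same pairs was 0.257, 0.771, -0.143, -0.257 and -0.829.

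**Figure D4:**
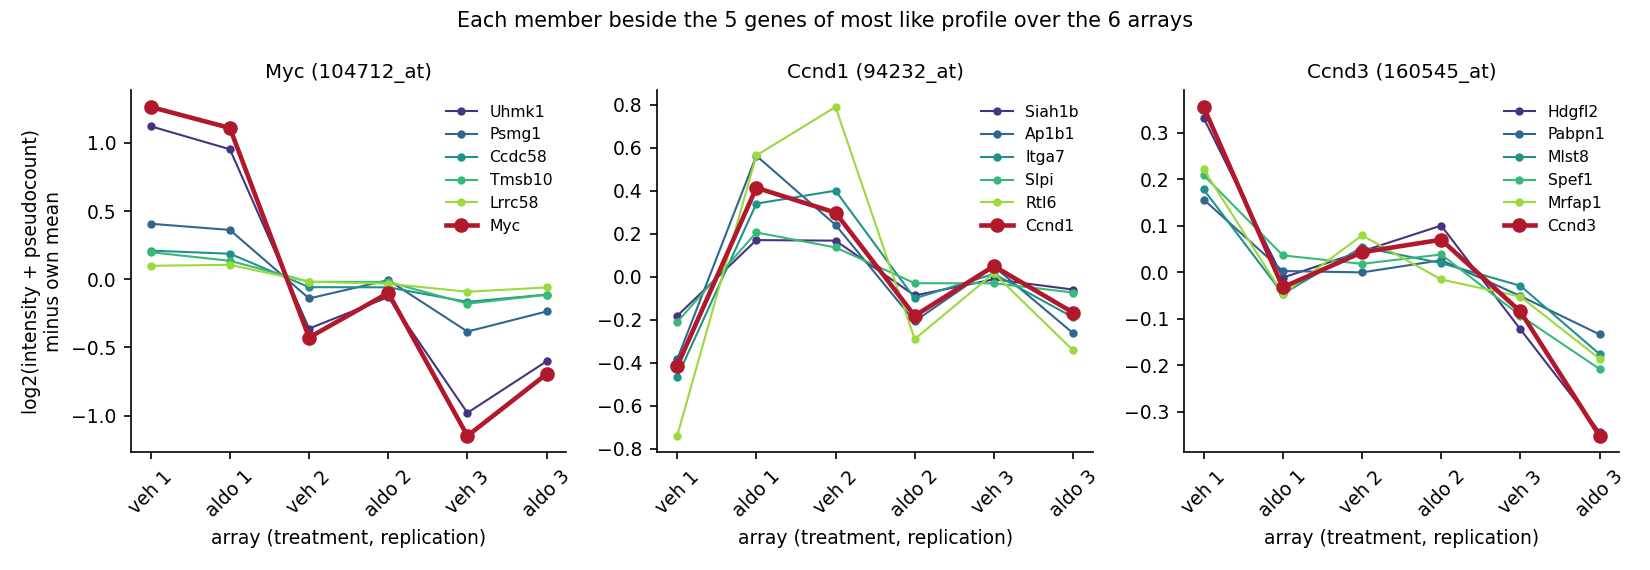
Log2(intensity + pseudocount) minus each probe set's own mean (vertical axis, a separate scale in each panel) over the 6 arrays (horizontal axis, treatment and replication) for Myc, Ccnd1 and Ccnd3 in red and the 5 genes of highest Pearson's r with each in other colours. The Myc profile steps down between replications together with Uhmk1, whereas the Ccnd1 and Ccnd3 profiles move between the arrays of a replication as well.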

How the data were processed

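The deposited table held 1 linear intensity per probe set and array, to 1 decimal. How the authors summarised and scaled these intensities is not given in the sources used here. The arrays' 2% trimmed means differed by more than 10%, so each array was scaled to their mean, 2090. Intensities were taken as log2(value + 53.0), the 10th percentile of scaled values. Probe sets with a mean at or above the 40th percentile (8.87) were tested, 7453 of 12422. The file gives no detection calls.

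Symbols came from the platform's annotation, checked by Entrez identifier against RefSeq genes of assembly GRCm38.p6, where 10817 of 10833 probe sets with 1 symbol matched and 0 changed; 396 had several and 1193 none. No sequence of the 5 probe sets was used.

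The treatment comparison used limma 3.58.1 under R 4.3.3 (lmFit, eBayes with an intensity trend, group alone, two-sided), and the replications its F test, with Benjamini-Hochberg adjustment over all tested probe sets at 0.05. The fits were tested on simulated data. Replication numbers were taken to pair the arrays, because each number names 1 control and 1 treated sample of a repeated experiment per the labels and because deviations from group means correlated at 0.377, 0.387 and 0.471 within numbers. Leaving out each array or replication, other filters, pseudocounts and scalings, no trend, the replicate block and treatment as a covariate were tried. Named genes are all member probe sets, the 3 smallest p of each list in each comparison, every list gene called, the brightest marker and the 5 most alike genes; others are said to have been named after their values were seen, apart from markers. Members and lists were chosen with earlier results of these data known.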

Additional observations from a re-analysis of the deposited data

How the results depend on the processing

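For aldosterone against vehicle, the counts of member probe sets and of list genes called stayed at 0 in all 17 alternatives, and the replicate block changed no call. The mean log2 difference of Myc ranged from -0.31 to 0.89 on leaving out arrays or replications, and that of Ccnd1 (94232_at) from -0.35 to 0.31. Each kept its sign under the other alternatives. Ccnd1 (94231_at) stayed above 0 (0.15 to 1.03), and Ccnd2 (-0.68 to -0.06) and Ccnd3 (-0.33 to -0.08) below 0, in all 17. Between replications Myc was the 1 member called in all 14 alternatives. The count of list genes called was 24, fell to 7 without the intensity trend, where 71 of all probe sets were called, and was 11 to 19 on leaving out 1 array, with 11 and 12 without the vehicle and the aldosterone array of replication 1 and 13 and 15 without those of replication 3. The count of immediate early genes alone, added after seeing the data, was 16, then 7 without the trend and 10 to 16 on leaving out 1 array. On leaving out any 1 array, fewer of all probe sets were called as well, and such a fit has 1 array in a replication. The cause of these drops was not tested. The data have 3 arrays a treatment and no detection calls, which limits what dim probe sets such as that of Ccnd2 can show.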
